A study of Mus musculus with 4 samples.

Results

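10 genes whose products mark preadipocytes and other mesenchymal cells at the surface, or are used for that purpose, were followed in brown preadipocytes with and without the histone methyltransferase G9a: Cd34, Ly6a, Thy1, Dpp4, Nt5e, Vcam1, Fap, S100a4, Itgb1 and Cd24a. They were chosen by name, with earlier results of these data known. A probe set, the group of oligonucleotides on the array that reads a transcript, was taken for a member where the platform annotation gave it a single gene symbol and that symbol was in the list. This gave 23 probe sets for 9 of the 10 genes, among 18193 genes with such a probe set in all. No probe set had Ly6a as its single gene symbol in the annotation used here, so that gene has no value below.

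The cells were immortalized mouse brown preadipocytes of mixed C57/BL6-129 background, grown in DMEM with serum. Both groups carried floxed G9a alleles (G9af/f). The 2 control arrays came from vector cells, which the labels call wild type, and the other 2 from Cre cells, labelled G9a knock out. The arrays of each group are numbered 1 and 2, and the labels do not say whether they came from separate cultures, clones or infections. P-values therefore measure only the spread between these arrays, which limma joins with variance borrowed from other genes. The series title names PPARγ and adipogenesis, and its design text asks which genes change expression without G9a.

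Preadipocytes belong to the fibroblast-like stroma of fat, and no single surface protein defines them. CD34, Sca-1 (the product of Ly6a) and the integrin β1 chain are commonly used together to sort them, after cells with blood or endothelial markers have been removed. DPP4 marks an early, multipotent progenitor in several fat depots, VCAM1 is found on more committed preadipocytes, and CD24 marks a small progenitor fraction in white fat. FAP and S100A4 are read mainly as markers of activated fibroblasts. G9a, encoded by Ehmt2, places mono- and dimethyl marks on lysine 9 of histone H3, which are linked to gene silencing.

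Signals are given in MAS5 units as deposited, and differences as knockout minus control on the scale of log2(signal + 16) after quantile normalization, which understates the change of dim genes. Standard errors (SE) are those of limma, n is 2 against 2 throughout, and a gene was said to rise or fall where its adjusted p was under 0.05. A gene with several probe sets is represented by its brightest. Levels of different probe sets are not compared, because each binds its target with its own efficiency. Of the members, 7 had a probe set at or above the median level of all probe sets and were tested, with 14 of their probe sets. Dpp4 and Nt5e lay below that limit.

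Ehmt2 read 2681.8 and 2688.1 in controls 1 and 2 against 953.1 and 912 in knockouts 1 and 2. The difference was -1.49 ± 0.20 (SE) with a limma adjusted p of 0.227, and of 0.000281 once the replicate number entered the model as a block. Which exons were deleted is not stated in the labels, so whether this probe set lies in them is not known. Arrays with the same number resembled each other: Xist read 11049.4 and 9810 in number 1, control first, against 41.8 and 58 in number 2. For the Y-linked Eif2s3y the readings were 141.1 and 227.6 in number 1, against 1126.7 and 1265.1 in number 2. The numbers were therefore taken to pair the arrays, and the main values of the members are given within each number, with the paired value of limma where it changes the call.

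Markers fixed for brown preadipocytes were read to check the cell type. Pdgfrb read 4526.7 and 3122.6 in controls 1 and 2 against 5668.6 and 4358.2 in knockouts 1 and 2. Dlk1 read 5421.1 and 5237.9 against 1689.7 and 4881.6, so both genes were bright on all 4 arrays. Pdgfra read 247.5 and 81.7 against 105.9 and 59.1. On the normalized scale Dlk1 and Pdgfra were lower in the knockouts without overlap, as were 13.6% of all tested genes. They differed by -0.92 ± 0.44 and -0.83 ± 0.42 and passed in neither model. Zic1, a transcription factor gene of the brown lineage, read 49.1 and 20.1 in number 1, below the array medians of 67.2 and 78, against 935.9 and 797.6 in number 2. The label brown preadipocyte thus has a strong Zic1 signal behind it only in number 2. Of the other genes in this list, Ebf2 read 72.9 and 222.7 in controls against 96.3 and 215.1 in knockouts. Prdm16 read 60.5 and 72.7 against 161.4 and 134.2. Lama4, below the level limit, read 37.7 and 10.2 against 359.5 and 30.2. The summed signal of the 7 genes was 10415.5 and 9683.7 in controls against 8101.5 and 10476 in knockouts. Most of it came from Pdgfrb and Dlk1. Of markers of other cells, 7 of 10 leukocyte genes lay below the level limit, with Ptprc at 2.9 to 11.9. The summed signal of the 10 was 487.9 and 523.4 in controls against 772.3 and 559.6 in knockouts. The 3 above the limit were Csf1r (143.4 and 162.6 in controls against 194.4 and 222.1 in knockouts), Cd68 (92.8 and 159.5 against 162.6 and 147.2) and Laptm5 (108.2 and 74.9 against 188.8 and 96.5). These 3 passed in neither model. None of 7 mast cell genes passed the limit, and their sums were 140.1 and 119.2 in controls against 222.9 and 99.2 in knockouts. All 7 endothelial genes lay below it as well, with Pecam1 at 3.1 to 12.9. Their summed signal was 150.4 and 83.5 in controls against 355.2 and 161.1 in knockouts. On the normalized scale 4 of the 7 lay higher in the knockouts without overlap, and in the deposited signals 3 of the 7 did (Tek, Emcn and Vwf). The share was 17.5% of all tested genes, but those have probe sets above the limit and are an unlike set. Of the smooth muscle and pericyte genes 5 of 7 passed the limit, with sums of 28430.5 and 32494.3 in controls against 36456.7 and 35129.7 in knockouts. Most of these sums came from Acta2 and Tagln, which differed by 0.15 and 0.08 and by 0.19 and -0.07 within numbers 1 and 2. Cnn1 differed by 1.74 and 0.23, Cspg4 by 0.68 and 0.64, and Notch3 by 0.60 and 0.58. All 5 passed in neither model. Of 4 epithelial genes 3 passed the limit, with sums of 335.9 and 385.4 in controls against 961.1 and 447.1 in knockouts. Among them the keratin gene Krt18 read 93.6 and 125.1 against 526.6 and 244.2, a difference of 1.58 ± 0.40 (limma adjusted p = 0.684, or 0.0213 in the paired model, where it rose). The rest of the epithelial list did not follow it. Within numbers 1 and 2 Krt8 differed by 1.52 and -1.28, Epcam by 0.37 and -0.05, and Cdh1, below the limit, by 0.34 and -0.02. Sums of the mature adipocyte genes were 235 and 115.5 in controls against 309.1 and 162 in knockouts. For the skeletal myoblast genes they were 346.1 and 305 against 401.3 and 279.7, and for the mesothelial genes 331 and 313.8 against 481.6 and 622.3. Cd34, Thy1 and Vcam1 are also made by some of these cells. The part of these cells in the values below was not tested. In such bulk RNA, fewer cells of a type and less RNA per cell cannot be told apart.

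The median difference of the surface markers was 0.02 over the 7 tested members, against 0.007 over all 11079 tested genes, and it was 0.26 within number 1 and -0.21 within number 2. Without the pairing 0 members passed limma's adjusted threshold, as did 0% of all tested genes, and 1 (S100a4) had an unadjusted p under 0.05, against 5.07% of all. In the paired model Fap and S100a4 rose and none of the 7 fell by the brightest probe set, so 2 of 7 passed where 4.23% of all tested genes did. With each gene read by its brightest probe set, the groups did not overlap for 4 members. S100a4 and Itgb1 were higher in both knockout arrays (17.5% of all genes were) and Cd34 and Cd24a were lower in both (13.6%). The other 3 were parted by replicate number, as were 53.5% of all genes: Fap and Vcam1 were higher in number 1 and Thy1 in number 2.

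**Figure D1:**
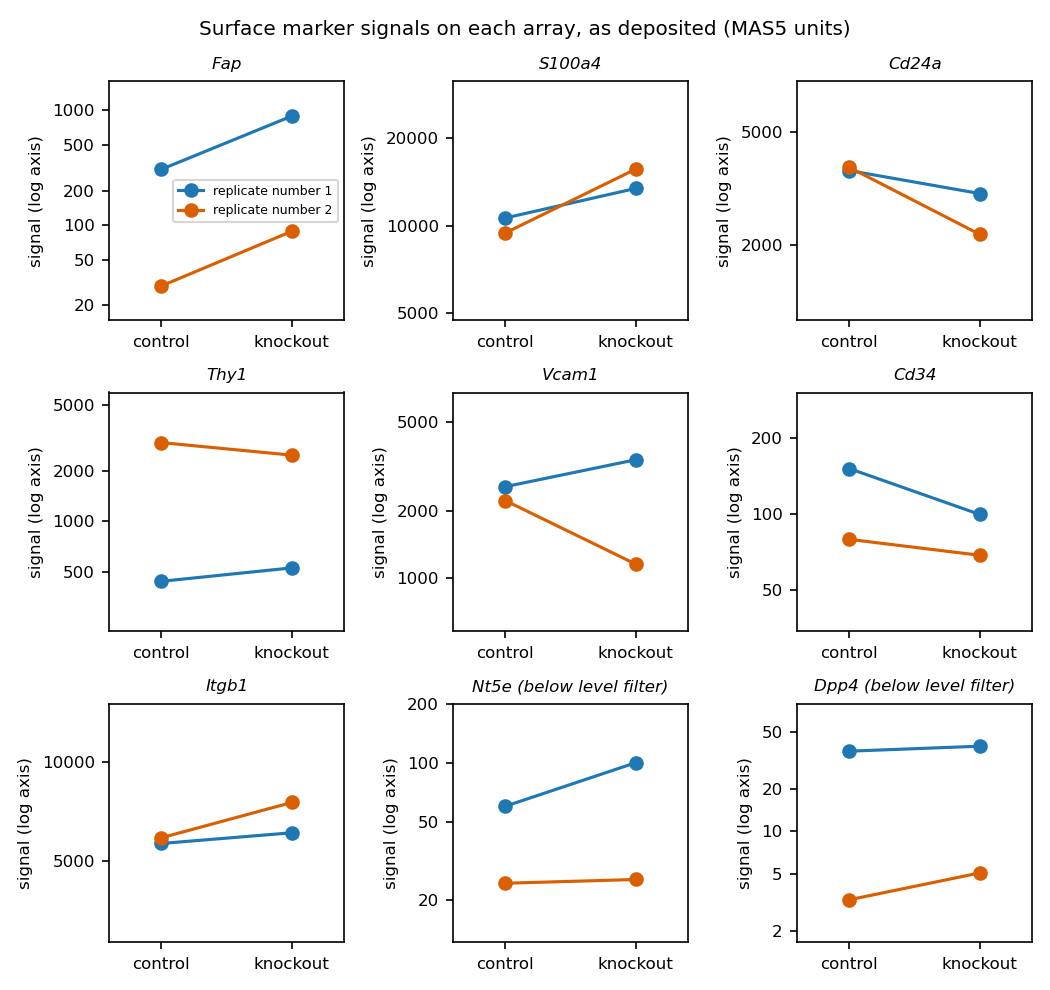
Deposited MAS5 signal of the brightest probe set of each of the 9 measured surface markers (vertical log axes, a separate range in each panel) in control and knockout cells; each point is 1 array and lines join arrays of the same replicate number. Both lines climb for Fap, S100a4 and Itgb1, and for Nt5e and Dpp4 below the level limit, and descend for Cd24a and Cd34. The lines of Thy1, Fap and Dpp4 lie far apart between the numbers.

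Fap encodes fibroblast activation protein, a membrane serine protease that cuts after proline and is prominent on activated stromal fibroblasts. Its single probe set (1417552_at) read 307.2 and 29.6 in controls 1 and 2 against 894.2 and 88.6 in knockouts 1 and 2. The knockout array was the higher one in both numbers, yet the groups overlapped, because both arrays of number 1 lay above both of number 2. The ratio of knockout to control signal was 2.91 in number 1 and 2.99 in number 2. On the log2 scale the differences were 1.57 and 1.15, where the pseudocount weighs more on the dim arrays of number 2. The mean difference was 1.36 ± 1.14 (SE; 95% interval -1.42 to 4.14; limma adjusted p = 0.999). Blocked on the replicate number it was 1.36 ± 0.22 (0.87 to 1.85; limma adjusted p = 0.00777), and Fap rose. The paired call was lost without the level filter (limma adjusted p = 0.129) and without limma's intensity trend (adjusted p = 0.0802). Leaving out an array unbalances the numbers: the unpaired difference was -0.12 without knockout 1, 0.09 without control 2, 2.63 without control 1 and 2.84 without knockout 2.

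Dpp4 encodes dipeptidyl peptidase 4 (CD26), the closest relative of FAP and the surface protein of early progenitors. The 2 genes are near neighbours in RefSeq annotation of GRCm38.p6, with only Gcg among protein-coding genes between them. All 4 Dpp4 probe sets lay below the level limit and were not tested. The brightest (1438279_at) read 36.8 and 3.3 in the controls against 39.9 and 5.1 in the knockouts, so it was parted by replicate number. Within numbers 1 and 2 the log2 signal differed by 0.08 and 0.13 as deposited and by -0.13 and 0.14 after normalization. The other 3 probe sets read between 0.5 and 15.7. Of the 8 further prolyl peptidases and relatives fixed as a list, 6 were tested, and the median difference was -0.02. In either model 0 passed (4.23% of all tested genes did when paired). The lysosomal Dpp7 differed by 0.61 ± 0.23 and Prcp by 0.39 ± 0.34, while the cytosolic Dpp8 differed by -0.24 ± 0.24. Read by its brightest plain probe set in place of the brightest of any kind, Dpp7 differed by -0.27.

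S100a4 encodes a small calcium-binding protein that binds myosin and is used as a fibroblast marker, although the protein is mostly inside the cell. Its start lies on the plus strand of chromosome 3, and its promoter is printed because S100a4 rose in the paired model and its RefSeq sequence was at hand. The sequence (GRCm38.p6, chr3:90603520-90603819, plus strand) runs from 250 bases before the start to 50 after it, and capitals mark the letters TATAAA, whose first base lies 31 bases before the start.
S100a4: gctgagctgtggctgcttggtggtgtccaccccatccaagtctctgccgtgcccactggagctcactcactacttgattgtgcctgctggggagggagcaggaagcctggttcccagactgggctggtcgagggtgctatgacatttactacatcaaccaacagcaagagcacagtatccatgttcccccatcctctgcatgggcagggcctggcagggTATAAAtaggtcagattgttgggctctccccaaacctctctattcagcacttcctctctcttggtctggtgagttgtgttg

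The letters TATAAA, searched on both strands, occur in 13.6% of the 32544 RefSeq promoters of this length. The window holds none of the other motifs searched on both strands, which are CCAAT (in 37.4% of promoters), GGGCGG (35.9%), TGANTCA (7.79%), CANNTG (72.3%) and TTCNNNGAA (8.33%). It holds 2 CpG dinucleotides, and 23.1% of promoters hold as few or fewer. Promoters of 5 of the 10 members were in the table, and CpG counts were 7 for Cd34, 4 for Dpp4, 27 for Itgb1 and 23 for Nt5e, against a median of 7. These are matches of letters in a window and describe no binding.

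The S100a4 probe set (1424542_at) read 10618.7 and 9436.5 in the controls against 13421.1 and 15640.2 in the knockouts. Both knockout arrays lay above both controls. The difference was 0.48 ± 0.13 (95% interval 0.16 to 0.79), a 1.39-fold higher mean, with 0.26 within number 1 and 0.69 within number 2. It did not pass without the pairing (limma adjusted p = 0.772). In the paired model S100a4 rose (0.48 ± 0.10; limma adjusted p = 0.0271), a call lost with median centring (limma adjusted p = 0.129), with robust eBayes (0.0559), without the trend (0.355), without the level filter (0.268) and with probe sets averaged (0.0569).

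The other S100 genes encode related calcium-binding proteins, and several lie in a row beside S100a4. Of 15 listed, 6 were tested, 5 had a positive difference, and their median was 0.31. S100a1, which encodes a protein of muscle best known in the heart, read 570.5 and 622.3 in controls against 1503.9 and 1687.8 in knockouts. It differed by 1.42 ± 0.23 (limma adjusted p = 0.319) and rose in the paired model (adjusted p = 0.00083). S100a13 differed by 0.68 ± 0.22 and also rose there (limma adjusted p = 0.0192), while S100a3 differed by 0.39 ± 0.35 and passed in neither model. So 2 of these 6 rose in the paired model, in which 3.25% of all tested genes rose. Without the trend both paired calls were lost (limma adjusted p = 0.0579 for S100a1 and 0.195 for S100a13), and that of S100a13 also without the level filter (0.112) and with median centring (0.087).

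Cd24a encodes a short, heavily glycosylated protein held by a lipid anchor. Its brightest probe set (1448182_a_at) read 3657.1 and 3750.1 in the controls against 3038.9 and 2186.2 in the knockouts. The second (1416034_at) read 2338.8 and 2548.5 against 1496.1 and 1411.9, and the third (1437502_x_at) 1237.2 and 679.6 against 783.4 and 535.9. In the first 2 both knockout arrays lay below both controls, and in the third the groups overlapped while the knockout was lower within each number. Within numbers 1 and 2 the brightest differed by -0.27 and -0.74. The mean differences were -0.51 ± 0.23, -0.72 ± 0.20 and -0.48 ± 0.34, with limma adjusted p-values of 0.999, 0.772 and 0.999. In the paired model, in which 0.984% of all tested genes fell, the second fell (limma adjusted p = 0.0184), with -0.64 within number 1 and -0.80 within number 2. The brightest did not pass there (limma adjusted p = 0.088), nor did the third (0.2). The call for Cd24a therefore depends on which probe set stands for it, while the sign was negative in all 3 and within both numbers.

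**Figure D2:**
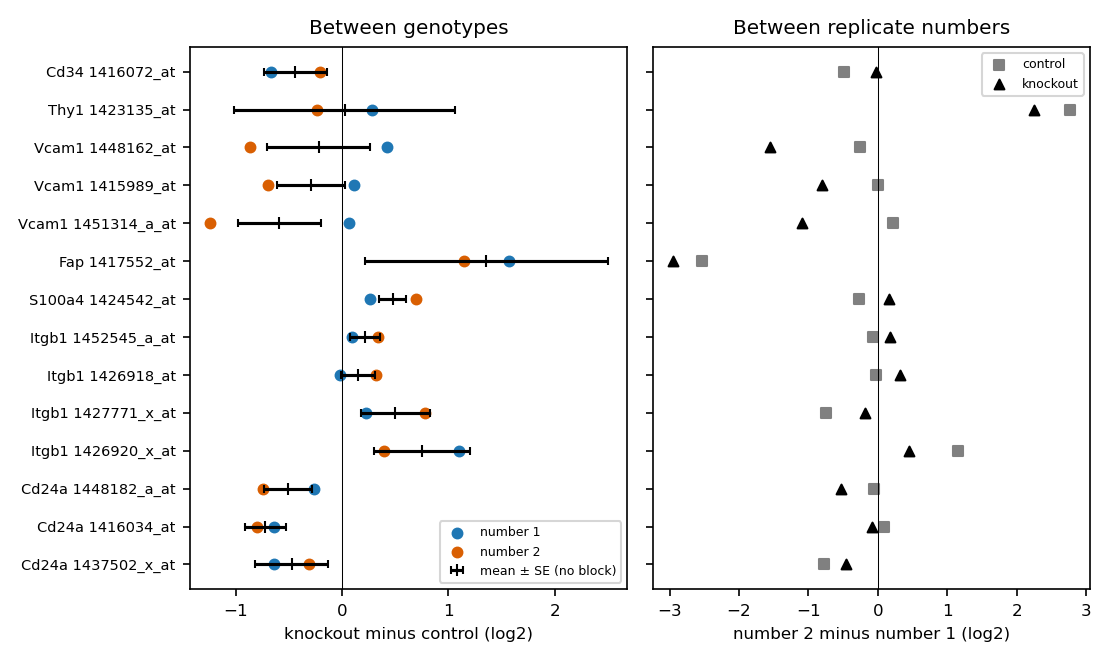
Left, difference between knockout and control (log2) for each of the 14 tested probe sets of the surface markers, within number 1, within number 2 and as the mean with the SE of the model without a block; right, difference between numbers 2 and 1 (log2) in control and in knockout arrays. The 3 Cd24a probe sets lie left of 0 in both numbers, and the probe sets of Thy1 and Fap lie farthest from 0 on the right.

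Cd34 encodes a sialomucin of progenitor and endothelial surfaces. Its probe set (1416072_at) read 151.2 and 79.4 in the controls against 99.6 and 68.7 in the knockouts. On the normalized scale both knockouts lay below both controls, while the deposited signals overlap, knockout 1 lying above control 2. The difference was -0.44 ± 0.30 (95% interval -1.17 to 0.29; limma adjusted p = 0.999), with -0.67 and -0.21 within numbers 1 and 2, and it passed in neither model. Among 5 genes listed as relatives of CD34 or partners of CD24, 4 were tested and 1 rose in the paired model (3.25% of all tested genes did). That gene was Selp, the adhesion receptor P-selectin and a ligand-binding partner of CD24, at 27.2 and 68.1 in controls against 269.7 and 197.8 in knockouts (1.92 ± 0.44; limma adjusted p = 0.614, or 0.00935 when paired). With mean log2 levels of 6.01 in controls and 7.93 in knockouts, Selp reached the level limit only through its knockout arrays. The paired call was lost without the level filter (limma adjusted p = 0.179) and without the trend (0.137). P-selectin is otherwise known from platelets and endothelium. The summed deposited signal of the 7 endothelial genes, all below the level limit, was also higher in the knockout within each number (150.4 to 355.2 and 83.5 to 161.1). After normalization Kdr differed by 0.88 and 1.78 within numbers 1 and 2, Tek by 1.45 and 0.52, and Emcn by 0.82 and 0.18. Vwf differed by 0.62 and 0.14, Pecam1 by 0.32 and -0.01, Cdh5 by 0.15 and 0.14, and Tie1 by 0.03 and 0.03. The part of platelets or endothelial cells in the Selp values was not tested. The CD34 relative Podxl2 differed by -0.67 ± 0.36 and the CD24 receptor gene Siglecg by 0.40 ± 0.61, and neither passed.

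Thy1 encodes CD90, a small lipid-anchored glycoprotein of fibroblasts, neurons and mouse T cells. Its probe set (1423135_at) read 436.8 and 2973.5 in the controls against 525.9 and 2500.1 in the knockouts. The genotypes overlapped fully, and both arrays of number 2 lay far above both of number 1. Number 2 over number 1 gave a signal ratio of 6.81 in the controls and 4.75 in the knockouts. The difference between genotypes was 0.02 ± 1.04 without the pairing and 0.02 ± 0.17 with it (paired 95% interval -0.36 to 0.41; limma adjusted p = 0.968), with 0.28 in number 1 and -0.24 in number 2. Its sign turned with median centring, to -0.10.

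Fap and Thy1 were the tested members most divided by replicate number, in opposite directions. Fap signal in number 1 was 10.4 times that in number 2 in the controls and 10.1 times in the knockouts. Both genes differed at least 4-fold between the numbers in both genotypes on the normalized scale, as did 24 of all 11079 tested genes (0.217%). The other 5 tested members did not differ by 2-fold in both genotypes, a limit that 2.11% of all tested genes passed. Below the level limit, the brightest probe sets of Dpp4 and Nt5e were also higher in number 1.

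Vcam1 encodes an immunoglobulin-like adhesion molecule that binds integrin α4β1. Its brightest probe set (1448162_at) read 2576.7 and 2229.7 in the controls against 3400.5 and 1158 in the knockouts. The knockout array was the highest of the 4 in number 1 and the lowest in number 2. The differences within the numbers were 0.43 and -0.87, and the mean was -0.22 ± 0.49 (limma adjusted p = 0.999; 0.711 in the paired model). The other 2 probe sets repeated the low reading of knockout 2, with 1055.1 and 1019.9 against 1102.5 and 599.6 for 1415989_at and 538.3 and 571.6 against 553.2 and 222.8 for 1451314_a_at. Their differences were 0.11 and 0.06 in number 1 and -0.70 and -1.24 in number 2. Without knockout 2 the brightest probe set differed by 0.55. With 1 array for each genotype and number, a difference between the numbers in the effect of the knockout could not be tested.

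Related adhesion genes of the immunoglobulin superfamily moved in both directions. Of 21 listed, 13 were tested, with a median of 0.16. In the paired model 1 rose and 1 fell, against 3.25% and 0.984% of all tested genes. L1cam, a neural adhesion gene, read 130.7 and 117.8 in controls against 594.9 and 283.4 in knockouts (1.61 ± 0.35; limma adjusted p = 0.565). It rose in the paired model, with an adjusted p of 0.00704 in limma. Nectin2, of cell-cell junctions, read 669.3 and 521.1 against 366.6 and 223.2 (-1.01 ± 0.27; limma adjusted p = 0.754). It fell in the paired model, with an adjusted p of 0.0149 in limma. Both paired calls were lost without the level filter (limma adjusted p = 0.14 for L1cam and 0.121 for Nectin2) and without the trend (0.136 and 0.108), and that of Nectin2 also with probe sets averaged (0.0564). Cd47, the signal that restrains phagocytes, differed by 0.48 ± 0.17 and did not pass in either model.

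**Figure D3:**
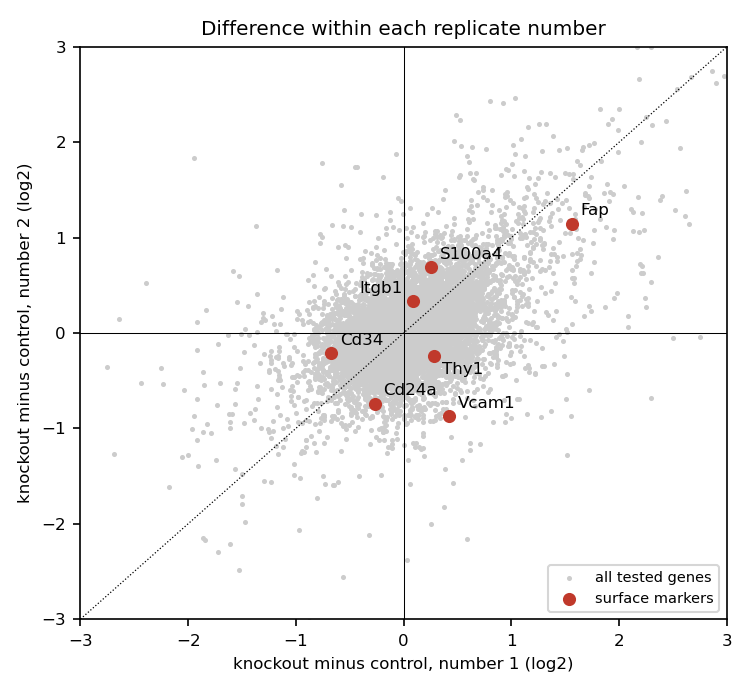
Difference between knockout and control (log2) within number 1 (horizontal) and within number 2 (vertical) for the 7 tested surface markers (red, named) and all 11079 tested genes (grey; 26 lie outside the axes); the dotted line marks equal differences. Fap lies at 1.57 and 1.15, S100a4 at 0.26 and 0.69, and Vcam1 at 0.43 and -0.87.

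Itgb1 encodes the integrin β1 chain, which pairs with many α chains to bind matrix and is made by nearly all adherent cells. Its 2 bright probe sets gave 5642.9 and 5874.3 in controls against 6082.3 and 7522.4 in knockouts for 1452545_a_at, and 5171.3 and 5567.1 against 5070.9 and 6980.8 for 1426918_at. Both knockouts lay above both controls in the first and the groups overlapped in the second. The differences were 0.21 ± 0.14 (95% interval -0.12 to 0.55) and 0.15 ± 0.16, and neither passed in either model (paired limma adjusted p = 0.341 and 0.574). Within numbers 1 and 2 the first differed by 0.09 and 0.34 and the second by -0.02 and 0.32. The dimmer tested probe sets 1427771_x_at and 1426920_x_at, of a type that can match several transcripts, differed by 0.50 ± 0.32 and 0.75 ± 0.45. With mean log2 levels of 6.10 in controls and 6.84 in knockouts, 1426920_x_at reached the level limit only through its knockout arrays. The remaining 2 lay below the level limit.

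Of 12 α chains that pair with integrin β1, 7 were tested, with a median of -0.05. In the paired model 1 rose, against 3.25% of all tested genes. It was Itga7, a laminin receptor chain of muscle, at 906.5 and 568.9 in controls against 1996.1 and 1161.5 in knockouts (1.10 ± 0.35; limma adjusted p = 0.931, or 0.00419 when paired). Itga6, another laminin receptor chain, differed by -0.56 ± 0.47 and Itga3 by -0.33 ± 0.32, and both passed in neither model. Among 7 other β chains 3 were tested. Itgb3, the β chain of the vitronectin receptor, read 257.6 and 227.7 in controls against 566.8 and 682.4 in knockouts (1.28 ± 0.25; limma adjusted p = 0.424) and rose in the paired model (limma adjusted p = 0.00443). The paired calls of Itga7 and Itgb3 were lost without the level filter (limma adjusted p = 0.0524 and 0.0721) and without the trend (0.0969 and 0.0784). Itgb5 and Itgb8 differed by 0.37 ± 0.53 and 0.33 ± 0.53 and were parted by replicate number.

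Nt5e encodes CD73, the surface enzyme that makes adenosine from AMP and one of the usual markers of cultured mesenchymal stromal cells. All 3 probe sets lay below the level limit and were not tested. The brightest (1428547_at) read 60.2 and 24.4 in the controls against 100.2 and 25.5 in the knockouts, and was parted by replicate number. The second (1422974_at) read 17.3 and 7 against 25 and 5.6, and the third (1459023_at) 16.1 and 22.6 against 23.4 and 43.3. Of 14 listed genes of extracellular nucleotide and adenosine handling, 5 were tested, and the median was -0.11. In either model 0 passed (4.23% of all tested genes did when paired). The ectoenzyme gene Enpp3 differed by -0.31 ± 0.25, and the nucleoside transporter genes Slc29a2 and Slc29a1 by -0.28 ± 0.25 and 0.28 ± 0.28.

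Ly6a itself has no value, but 14 of 17 listed relatives of the Ly6 and uPAR family, small lipid-anchored surface proteins, had a probe set and 5 were tested. The 5 had a positive mean difference, with a median of 0.43, where 5660 of all 11079 tested genes were positive. Only 3 of the 5 were higher within both numbers, and these were also higher without overlap (17.5% of all tested genes were). The other 2 differed in opposite directions within the numbers. In the paired model 1 of the 5 rose, against 3.25% of all tested genes. Cd59a, which protects cells from complement, read 298 and 212.3 in controls against 1094.7 and 618.4 in knockouts (1.64 ± 0.32; limma adjusted p = 0.424, or 0.00122 when paired, a call lost without the trend at 0.0653). Lynx1 differed by 0.59 ± 0.34 and the urokinase receptor gene Plaur by 0.43 ± 0.26, and neither passed.

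Of 24 other surface markers of mesenchymal and adipose progenitor cells, 15 were tested. Their median was 0.31, with 10 positive and 5 negative. In the paired model 1 rose and 1 fell, against 3.25% and 0.984% of all tested genes. Ngfr, the low-affinity nerve growth factor receptor CD271 and a stromal progenitor marker, read 118.4 and 17.7 in controls against 724.5 and 189.6 in knockouts. With mean log2 levels of 6.10 in controls and 8.65 in knockouts, Ngfr reached the level limit, and so the test, only through its knockout arrays. Its difference was 2.55 ± 0.73 without the pairing (limma adjusted p = 0.824) and it rose in the paired model (0.00019), with 2.54 and 2.56 within the numbers. F3, the tissue factor CD142, read 1904.8 and 1377.3 against 935.8 and 868.4 (-0.81 ± 0.25; limma adjusted p = 0.917) and fell in the paired model (0.0231), a call lost without the level filter (limma adjusted p = 0.141) and without the trend (0.193). Cd9, a tetraspanin gene, differed by 0.44 ± 0.16 and did not pass in either model. By genotype 3 of the 15 were higher without overlap and 4 lower (17.5% and 13.6% of all tested genes were), while 7 were parted by replicate number (53.5% of all).

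**Figure D4:**
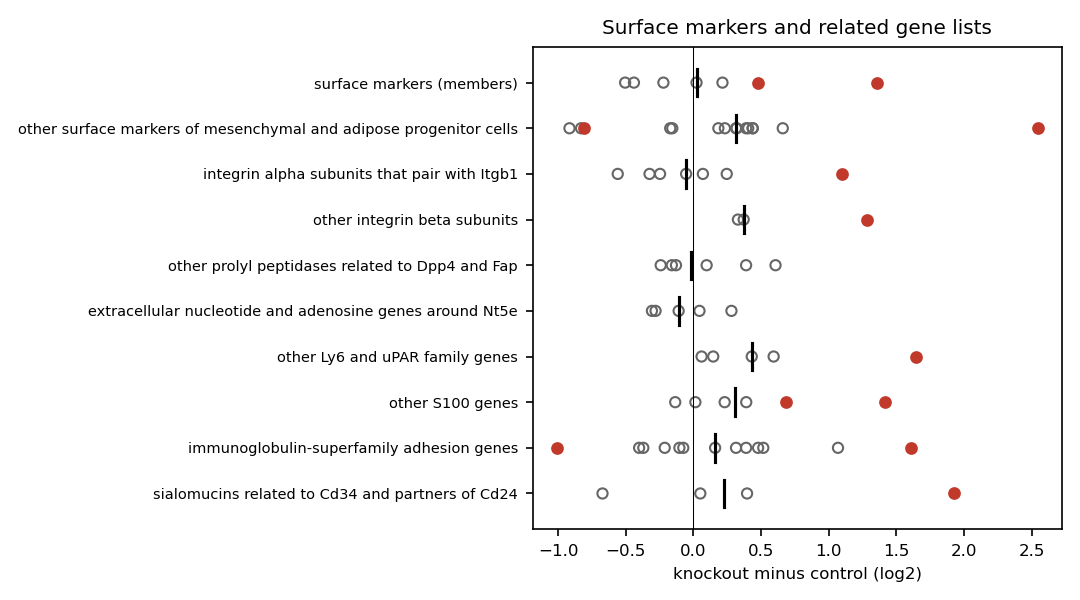
Difference between knockout and control (log2) of every tested gene among the surface markers and in 9 related gene lists (rows); red points passed limma's adjusted threshold of 0.05 with the replicate number as a block, open circles did not, and the vertical bar marks the median of each list. The surface markers have 2 red points, Fap and S100a4, and a median of 0.02.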

How the data were processed

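Total RNA was hybridized to 4 Affymetrix arrays. The deposited values are signal intensities per probe set on a linear scale, made with MAS5 per the submitters' processing notes. Its version is not given in the sources used here. Trimmed by 2% at each end, every array averaged 500, so it had been scaled, and array medians differed by up to 0.50 (log2), so intensities were quantile normalized. Of 45037 probe sets without controls, 34945 had 1 gene symbol, updated through the gene ID to RefSeq (34741 matched). The 22519 probe sets whose mean reached the 50th percentile were tested. Differences come from limma 3.58.1 (lmFit, then eBayes with its trend option; R 4.3.3), adjusted by Benjamini-Hochberg over all tested probe sets, with 2 residual degrees of freedom, or 1 with the replicate block. Variance shared across genes supplied a further 4.10 degrees of freedom, or 9.81 with the block. Paired SEs and p-values therefore rest more on variance borrowed from other genes than on the gene's own pairs. The fit was tested on simulated data. An exact permutation test of 2 against 2 cannot go below p = 0.333.

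Over tested probe sets, deviations from the group mean correlated at 0.603 between arrays of 1 number. With 2 pairs, the pairing rests on the sex-linked transcripts, not on the labels. All 10 members are described, and up to 3 genes with the smallest p of each of 9 related lists are named. Members and lists were chosen with earlier results of these data known, so no list was tested as a set. Alternatives were pseudocounts of 1 and 64, other level filters, scalings, variance models and probe set rules, a replicate block, and fits that omit 1 array at a time.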

Additional observations from a re-analysis of the deposited data

How the results depend on the processing

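The number of arrays limits every value, and with 2 per group the model without pairing called 0 members under every alternative that left out the replicate block. The planned fit with the replicate block called 2 members, Fap and S100a4. Fits that join the block to another choice were added after seeing the data. They called 2 with a pseudocount of 1 or 64, 3 with the deposited scaling or with plain probe sets only (Cd24a added), 1 with the 75th percentile filter (S100a4, Fap being filtered out), 1 with median centring, robust eBayes or averaged probe sets (Fap), and 0 without the level filter or the trend. The median of the members ran from -0.12 to 0.13 over all alternatives. Leaving out each array in turn gave -0.12 to 0.13 for this median and 0 called members.

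Differences that changed sign were Thy1 (-0.10 with median centring, with or without the replicate block; -1.36 to 1.41 with an array left out) and Dpp7 (-0.27 by plain probe sets, with or without the block). With an array left out the ranges were -0.12 to 2.84 for Fap, -0.997 to 0.55 for Vcam1, -0.68 to 0.028 for Itga3, -1.23 to 0.11 for Itga6, -0.30 to 1.04 for Itgb5, -0.50 to 1.15 for Itgb8, -0.36 to 1.15 for Siglecg and -0.0708 to 0.63 for Slc29a1. None of these passed. Median centring moved the median of all genes from 0.007 to -0.09.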

Other observations

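Genes beside the members along the chromosome were looked at after the members' values had been seen. The protein-coding gene next to Fap on the side away from Dpp4 is Ifih1, which encodes the viral RNA sensor MDA5 and is inducible by interferon. Ifih1 differed by 1.37 ± 0.40 (limma adjusted p = 0.865) and rose in the paired model (limma adjusted p = 0.00442), with 1.43 and 1.30 within numbers 1 and 2, beside 1.57 and 1.15 for Fap. On the other side, Gcg (-0.15) and Dpp4 (0.005), both below the level limit, differed little, and beyond Ifih1 the dim Gca differed by 0.32. Tested neighbours were read up to 3 coding genes from every member with an annotated place. Of those that are not members themselves, none but Ifih1 passed in the paired model, in which 3.25% of all tested genes rose. A link between Ifih1 and Fap was not tested.

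In the row of S100 genes the tested members lay, in chromosomal order, at 1.42 (S100a1), 0.68 (S100a13), 0.23 (S100a16), 0.39 (S100a3), 0.48 (S100a4) and 0.01 (S100a6). Of these 6, S100a1, S100a13 and S100a4 rose in the paired model, in which 3.25% of all tested genes rose. The dim genes of the row, below the level limit, went both ways. S100a5 differed by 0.26 and S100a7l2 by 0.07, while S100a14, S100a8 and S100a9 differed by -0.37, -1.06 and -0.68. S100a10, which is 63 protein-coding genes away from S100a4, differed by -0.14 ± 0.26.

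Ly6i, the coding gene next to Ly6a with a probe set, lay below the level limit and differed by 1.19 and 0.94 within numbers 1 and 2, while the bright Ly6e, the gene beyond it, differed by 0.40 and -0.28.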
